A study of Mus musculus with 34 samples.

Results

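The genes described here are the potassium channel genes of mouse brain, taken from the 16389 genes of an RNA-seq expression table. Their symbols start with Kcn, followed by letters and a number. *Kcne2* was left out by the rule, and a gene had to reach 1 FPKM (fragments per kilobase of transcript, scaled to the size of the library) in at least 3 libraries. Of 81 symbols of that form, 74 were members. Those under the minimum were *Kcnh8*, *Kcnk5*, *Kcnmb1*, *Kcnn4*, *Kcnq1* and *Kcnu1*. Just inside the minimum were *Kcnj5* and *Kcnk15*, each at 1 FPKM or more in 3 libraries, and just outside it was *Kcnu1*, in 2 libraries. All 74 members were among the 14710 genes tested.

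Potassium channels let potassium leave or enter cells along its gradient, and so set the resting potential, end action potentials and shape firing. Voltage-gated (Kv) pore subunits assemble as tetramers, joined by silent Kv subunits that do not conduct alone and by auxiliary subunits. Kv7 channels carry the M current, the EAG, ERG and ELK channels form a further voltage-gated group, and other channels open with intracellular calcium or sodium. Inward rectifiers and tandem-pore leak channels act near rest. In brain most of these genes are neuronal, whereas *Kcnj10* and *Kcnj16* mark astrocytes, *Kcnj13* the choroid plexus and *Kcnk13* microglia.

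The 34 libraries came from 12 male C57BL/6 mice, 4 per treatment group. Their age at the start is given as 1.5 months in the general methods but 4 months where the irradiation is described. WT CON mice were neither irradiated nor transplanted and received vehicle diet. GFP-BM CON mice received 1000 cGy of whole-body irradiation followed by bone marrow from CAG-EGFP donors, in which a ubiquitous promoter drives the reporter. GFP-BM REPOP mice were irradiated and transplanted likewise and, 3.5 months later, received the CSF1R inhibitor PLX3397 at 600 ppm in the diet for 14 days, which depletes microglia, followed by 6 months of recovery. Irradiation and transplantation always came together, so their effects cannot be told apart. Cortex gave 3, 4 and 4 libraries (WT CON, GFP-BM CON, GFP-BM REPOP), hippocampus 4, 4 and 4, and thalamus, dissected together with striatum, 4, 3 and 4.

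The recovered read totals were 17085018 to 26010509 per library, and a member value rested on a median of 629 reads. The tissue labels were checked on marker genes, given as the summed FPKM of 10 genes per list. Cortex markers summed to 284 to 360 in cortex libraries and 84.2 to 296 in the others. Thalamus markers summed to 197 to 384 in thalamus libraries and 40.4 to 261 elsewhere. Hippocampus markers did not follow the label in every library. They summed to 68.6 in WT CON hippocampus replicate 2 and 65.7 in GFP-BM REPOP hippocampus replicate 1, below the 92.3 to 123 of the cortex libraries, whereas the other 10 hippocampus libraries ranged from 131 to 365. Striatum markers summed to 286 to 1170 in thalamus libraries, to 280 to 741 in cortex libraries and to 82.2 to 820 in WT CON hippocampus. They summed to 139 to 174 in GFP-BM CON hippocampus, and to 123 to 227 in GFP-BM REPOP hippocampus apart from replicate 4, at 1973. Libraries also differed by base composition. The GC measure, which subtracts the median log2 level of GC-poor genes (at most 41.5% GC) from that of GC-rich genes (at least 58.2%), averaged 0.94 ± 0.26 (SD) in WT CON cortex, 2.57 ± 0.67 in WT CON hippocampus and 2.08 ± 1.14 in WT CON thalamus. Each fit was therefore repeated after a correction for GC content and transcript length.

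The members spanned a wide range of levels. The highest mean FPKM over all libraries was that of *Kcnab2*, a Kv beta subunit, at 170. Other members with high means were *Kcnip2* (99.5), a calcium-binding Kv4 partner, and the inward rectifiers *Kcnj4* (54.3) and *Kcnj9* (46.7). By family, the median of the member means was 30.3 FPKM for the 8 auxiliary subunits, 20.8 for the 15 Kv1 to Kv4 pore subunits and 12.1 for the 4 Kv7 genes. It was 7.97 for the 8 calcium- and sodium-activated genes, 7.79 for the 10 tandem-pore genes, 6.60 for the 9 silent subunits, 5.56 for the 7 EAG, ERG and ELK genes and 5.34 for the 13 inward rectifiers. In WT CON, 38 of 74 members had their highest mean in cortex (51.4%, against 36.1% of all genes tested), 14 in hippocampus (18.9% against 37.5%) and 22 in thalamus (29.7% against 26.4%). The same region was highest in all 3 treatment groups for 29, 7 and 16 members, respectively. The matching share over all genes was not computed, so this does not set the members apart from other genes.

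**Figure D1:**
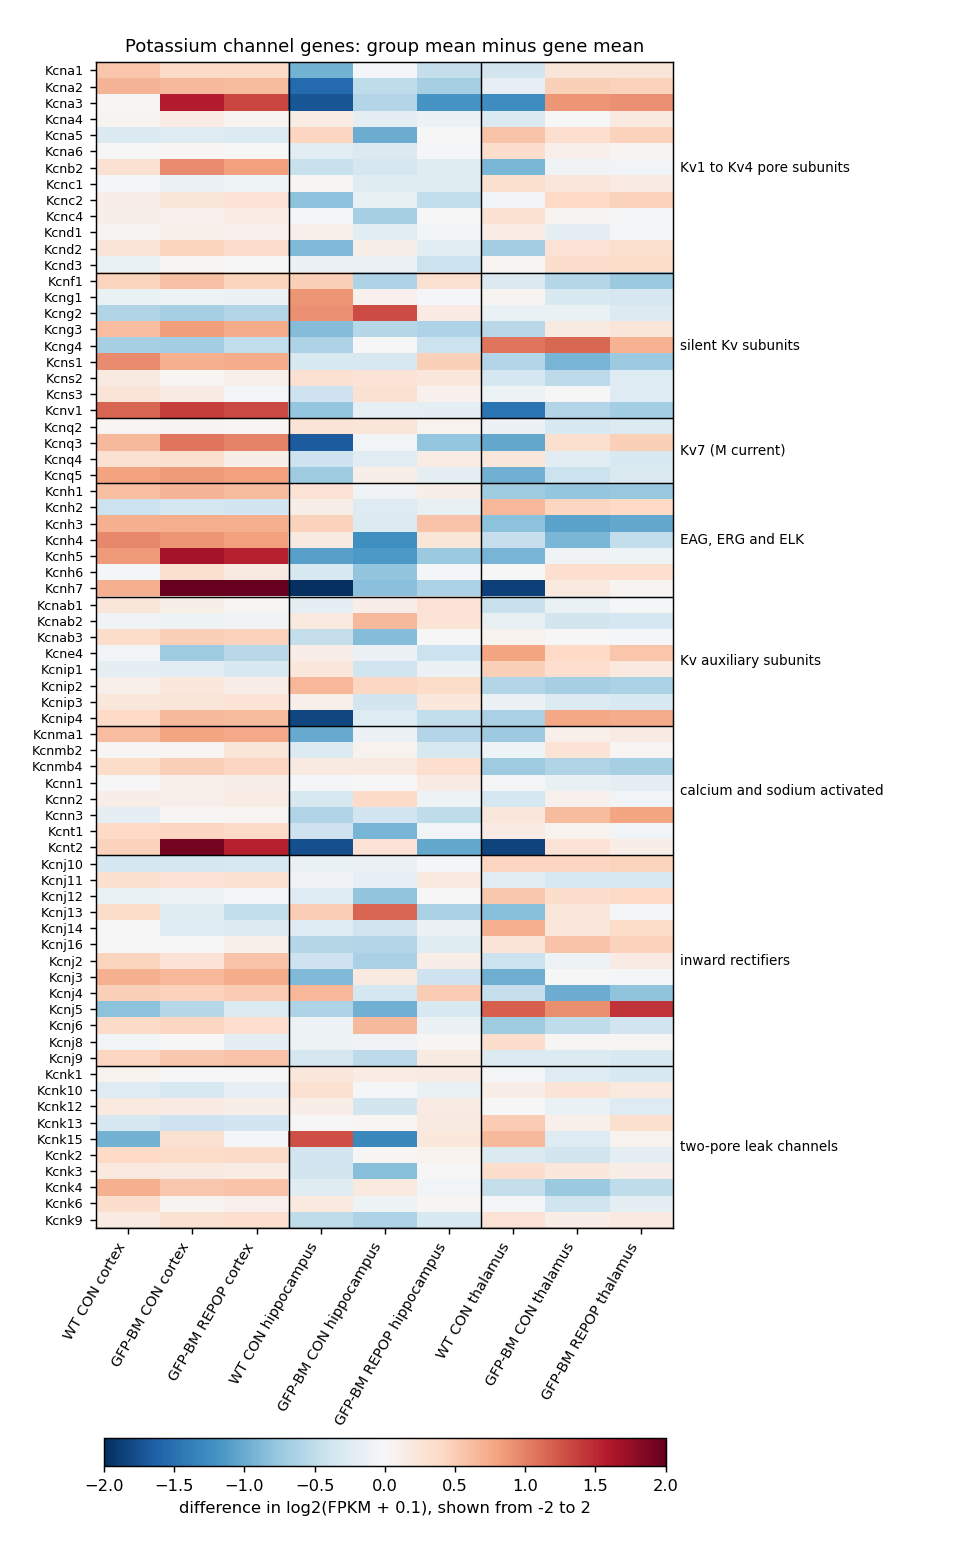
Regional pattern of 72 of the 74 potassium channel genes. Each row is a gene, grouped by family, each column 1 of the 9 groups (3 regions by 3 treatments), and the colour gives the group mean of log2(FPKM + 0.1) minus the gene's mean over groups. The 3 columns of a region look more alike than the 3 columns of a treatment, and more genes are at their highest in cortex (38 of 74 in WT CON) than in hippocampus (14) or thalamus (22).

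Promoter sequence is shown for 4 members on which the results below turn: *Kcnj10* and *Kcnj5*, higher in thalamus, *Kcnh5*, lower in thalamus, and *Kcna3*, which differed by treatment. Of the 74 members, 53 were matched by gene ID to the RefSeq promoter table (GRCm38.p6). Each line gives the 250 bases before the transcription start, 5′ to 3′ on the gene's strand, with capitals marking GC boxes (GGGCGG, or its reverse complement CCGCCC).

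Kcnj10, chr1:172340960-172341209, + strand: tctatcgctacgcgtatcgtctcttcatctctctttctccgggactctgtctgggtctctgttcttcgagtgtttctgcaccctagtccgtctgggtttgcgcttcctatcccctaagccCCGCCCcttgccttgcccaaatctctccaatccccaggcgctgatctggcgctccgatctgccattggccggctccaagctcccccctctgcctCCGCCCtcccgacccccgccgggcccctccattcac
Kcnj5, chr9:32344345-32344594, - strand: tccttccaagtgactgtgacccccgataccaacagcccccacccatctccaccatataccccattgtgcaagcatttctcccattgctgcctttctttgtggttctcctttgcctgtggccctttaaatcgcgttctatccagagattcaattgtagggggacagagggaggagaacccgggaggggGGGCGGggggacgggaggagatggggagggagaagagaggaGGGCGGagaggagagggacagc
Kcnh5, chr12:75177333-75177582, - strand: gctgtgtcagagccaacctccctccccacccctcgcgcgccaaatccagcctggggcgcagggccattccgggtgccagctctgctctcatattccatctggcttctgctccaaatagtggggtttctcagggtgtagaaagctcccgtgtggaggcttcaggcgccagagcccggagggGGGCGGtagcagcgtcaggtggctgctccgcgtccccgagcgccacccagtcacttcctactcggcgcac
Kcna3, chr3:107035912-107036161, + strand: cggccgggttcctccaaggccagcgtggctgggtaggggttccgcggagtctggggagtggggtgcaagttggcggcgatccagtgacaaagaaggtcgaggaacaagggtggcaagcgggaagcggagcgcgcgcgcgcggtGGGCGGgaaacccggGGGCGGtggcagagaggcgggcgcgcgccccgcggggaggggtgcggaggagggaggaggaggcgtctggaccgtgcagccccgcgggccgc

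The *Kcna3* promoter was the richest of the 4 in GC, at 74.4% with 31 CpG, against 62.0% and 17 for *Kcnj10*, 65.6% and 16 for *Kcnh5*, and 58.0% and 7 for *Kcnj5*. *Kcnj10*, *Kcnj5* and *Kcna3* each held 2 GC boxes and *Kcnh5* held 1. A GC box on either strand was present in 28 of the 53 member promoters (52.8%) and in 32.9% of all 27025 promoters in the table, whereas TATAAA was present in 3.77% and 13.0%, respectively. Median promoter GC was 61.2% over the members and 52.0% over all promoters. These letters describe the windows only.

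Most members that differed between regions in WT CON were lower outside cortex. Hippocampus against cortex gave 3 members higher and 25 lower, where 36.9% of all genes tested were called (15.7% higher, 21.2% lower). Thalamus against cortex gave 7 higher and 24 lower, where 30.0% were called (13.0% higher, 17.0% lower). Thalamus against hippocampus gave 12 higher and 8 lower, where 17.7% were called (7.82% higher, 9.88% lower). The members' shares were 37.8%, 41.9% and 27.0%. The median log2 fold change of the members was -0.29, -0.35 and 0.11 for the 3 contrasts, and that of all genes tested was 0.06, -0.01 and -0.0028. All calls are from limma with Benjamini-Hochberg adjustment over all 14710 genes, on log2(FPKM + 0.1). In bulk tissue, fewer cells of a type and less RNA per cell cannot be told apart.

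The calls rested on the spread shared by all 34 libraries. With the 11 WT CON libraries alone, 10, 11 and 4 members were called, where 11.1%, 6.40% and 4.10% of all genes were. With the animal as a fixed replicate block in those libraries, the members called were 1 (*Kcnh7*), 2 (*Kcnh1* and *Kcnv1*) and 1 (*Kcnk9*), where 1.20%, 2.19% and 0.313% of all genes were called. After the GC correction, 6 were higher and 26 lower in hippocampus than cortex, 11 and 26 in thalamus than cortex, and 16 and 13 in thalamus than hippocampus, where 36.7%, 30.0% and 25.4% of all genes were called. The members called both with and without that correction numbered 25, 27 and 20. Regions did not overlap for 2 members higher and 24 lower in hippocampus than cortex (42.6% of all genes), for 13 and 30 in thalamus than cortex (36.2%) and for 3 and 4 in thalamus than hippocampus (9.90%).

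In thalamus, neuronal voltage-gated subunits and a sodium-activated channel fell furthest against cortex. *Kcnv1*, a silent Kv8 subunit, read 23.0, 15.5 and 22.9 in cortex and 7.29, 2.15, 3.12 and 1.99 in thalamus, a log2 fold change of -2.63 ± 0.37 (SE, adjusted p = 1.3e-05). *Kcnh7*, an ERG channel, read 3.26, 1.59 and 4.39 in cortex and 0.716, 0.177, 0.352 and 0.472 in thalamus, a log2 fold change of -2.58 ± 0.56 (SE, adjusted p = 0.0018). *Kcnt2*, the sodium-activated channel Slick, read 2.78, 1.39 and 5.14 in cortex and 0.835, 0.352, 0.358 and 0.441 in thalamus, a log2 fold change of -2.31 ± 0.47 (SE, adjusted p = 0.0010). All 4 thalamus libraries were below all 3 cortex libraries for each of these genes. The same held for *Kcnh5*, an EAG channel, which read 4.18, 2.87 and 5.99 in cortex and 1.82, 0.686, 1.02 and 1.27 in thalamus (log2 fold change -1.79 ± 0.38, adjusted p = 0.0015), and for *Kcnq5*, an M-current subunit, which read 20.8, 18.1 and 18.6 in cortex and 8.98, 2.43, 9.63 and 4.54 in thalamus (log2 fold change -1.77 ± 0.41, adjusted p = 0.0031). After the GC correction the falls were -1.96, -1.40, -1.17, -1.84 and -1.49 for *Kcnv1*, *Kcnh7*, *Kcnt2*, *Kcnh5* and *Kcnq5*, all still called.

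Of the 7 members higher in thalamus, 4 were inward rectifiers. *Kcnj5*, a subunit gated by G proteins, read 0.130, 0.116 and 0.192 in cortex and 0.676, 0.908, 0.876 and 1.11 in thalamus, a log2 fold change of 2.01 ± 0.48 (SE, adjusted p = 0.0038). In WT CON only thalamus brought *Kcnj5* to the minimum of 1 FPKM (at most 0.465 in hippocampus). The rule that made it a member thus favoured a higher value in thalamus, here and in the counts that include it. *Kcnj10*, the main potassium channel of astrocytes, read 28.9, 31.9 and 31.8 in cortex and 42.8, 50.3, 51.1 and 70.3 in thalamus, a log2 fold change of 0.77 ± 0.19 (SE, adjusted p = 0.0041). *Kcng4*, a silent Kv6 subunit, read 2.22, 2.33 and 2.72 in cortex and 4.90, 14.5, 5.53 and 12.1 in thalamus, a log2 fold change of 1.75 ± 0.43 (SE, adjusted p = 0.0046). No thalamus library overlapped the cortex libraries for these genes, although the WT CON thalamus values of *Kcng4* ran from 4.90 to 14.5. *Kcnh2*, an ERG channel, read 10.9, 12.5 and 12.5 in cortex and 17.6, 34.6, 24.8 and 28.3 in thalamus (log2 fold change 1.09 ± 0.27, adjusted p = 0.0054). *Kcnk13*, the tandem-pore channel known from microglia, read 3.60, 3.21 and 2.78 in cortex and 4.76, 8.21, 5.72 and 5.21 in thalamus (log2 fold change 0.86 ± 0.28, adjusted p = 0.023), and its call was lost in 3 of 7 fits that left out 1 library (WT CON cortex replicate 2 or 3, or thalamus replicate 2). Astrocyte markers summed to 918 to 982 FPKM in WT CON cortex and 1049 to 1424 in thalamus, and microglia markers to 152 to 172 and 167 to 253. Their part in these differences was not tested.

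In hippocampus, the largest falls against cortex were spread over several families. *Kcna2*, an axonal Kv1 pore subunit, read 34.9, 31.8 and 35.3 in cortex and 3.75, 8.18, 11.4 and 7.22 in hippocampus, a log2 fold change of -2.24 ± 0.34 (SE, adjusted p = 5.2e-05). *Kcnq3*, an M-current subunit, read 17.4, 11.4 and 18.4 in cortex and 2.89, 1.20, 4.57 and 5.05 in hippocampus, a log2 fold change of -2.31 ± 0.40 (SE, adjusted p = 0.00018). *Kcnip4*, an auxiliary subunit of Kv4 channels, read 13.7, 13.4 and 14.4 in cortex and 1.46, 1.89, 6.42 and 3.84 in hippocampus, a log2 fold change of -2.22 ± 0.50 (SE, adjusted p = 0.0015). The 4 hippocampus libraries were below the 3 cortex libraries for all of these genes. *Kcnh7* read 0.188, 0.307, 0.449 and 0.156 in hippocampus (log2 fold change -3.03 ± 0.56, adjusted p = 0.00033) and *Kcnt2* 0.329, 0.332, 0.696 and 0.798 (log2 fold change -2.22 ± 0.47, adjusted p = 0.0010). The GC correction took the change of *Kcnt2*, at 36.6% the member with the lowest GC content, to -0.61 (adjusted p = 0.095), and that of *Kcnk9* from -0.69 to 0.01. It turned the direction of *Kcnb2*, a delayed-rectifier pore subunit named after its values were seen, from -0.76 (not called) to 1.06 (adjusted p = 0.014). *Kcng1*, a silent Kv6 subunit, was the only 1 of the 3 members higher in hippocampus whose regions did not overlap, at 8.04, 8.33 and 7.36 in cortex and 14.0, 13.6, 20.3 and 16.8 in hippocampus (log2 fold change 1.00 ± 0.29, adjusted p = 0.0091). Without WT CON hippocampus replicate 2, whose hippocampus markers were low, 4 members were higher and 23 lower, where 33.7% of all genes were called.

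Between thalamus and hippocampus the differences ran both ways. *Kcnh3*, an ELK channel of the forebrain, read 38.5, 67.8, 46.4 and 36.8 in hippocampus and 23.9, 24.4, 27.5 and 7.81 in thalamus, a log2 fold change of -1.28 ± 0.26 (SE, adjusted p = 0.0013). *Kcnip2* read 116, 126, 142 and 211 in hippocampus and 68.8, 73.9, 97.9 and 27.5 in thalamus (log2 fold change -1.25 ± 0.27, adjusted p = 0.0021). *Kcnh1*, an EAG channel, read 13.5, 13.1, 17.1 and 14.7 in hippocampus and 8.27, 7.45, 9.29 and 4.62 in thalamus (log2 fold change -1.01 ± 0.18, adjusted p = 0.00036). The thalamus values of all 3 genes lay below every hippocampus value, and so did those of *Kcnmb4*, the neuronal beta subunit of BK channels, with 31.4, 28.0, 30.8 and 40.4 in hippocampus against 19.2, 22.6, 16.7 and 13.0 (log2 fold change -0.88 ± 0.14, adjusted p = 0.00012). In the other direction, *Kcnk9*, a tandem-pore leak channel, read 12.6 to 16.8 in the 4 hippocampus libraries and 23.8, 27.2, 25.4 and 26.2 in thalamus (log2 fold change 0.80 ± 0.17, adjusted p = 0.0022), and its thalamus values were close to those in cortex (24.3, 24.3 and 22.2). *Kcnj5* rose by 1.81 ± 0.45 (SE, adjusted p = 0.0058) over hippocampus, and *Kcnj14*, a further inward rectifier, by 0.97 ± 0.23 (SE, adjusted p = 0.0046). For *Kcnj5* the FPKM minimum favoured this direction too. Without WT CON hippocampus replicate 2, 13 members were higher and 13 lower, where 17.6% of all genes were called.

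**Figure D2:**
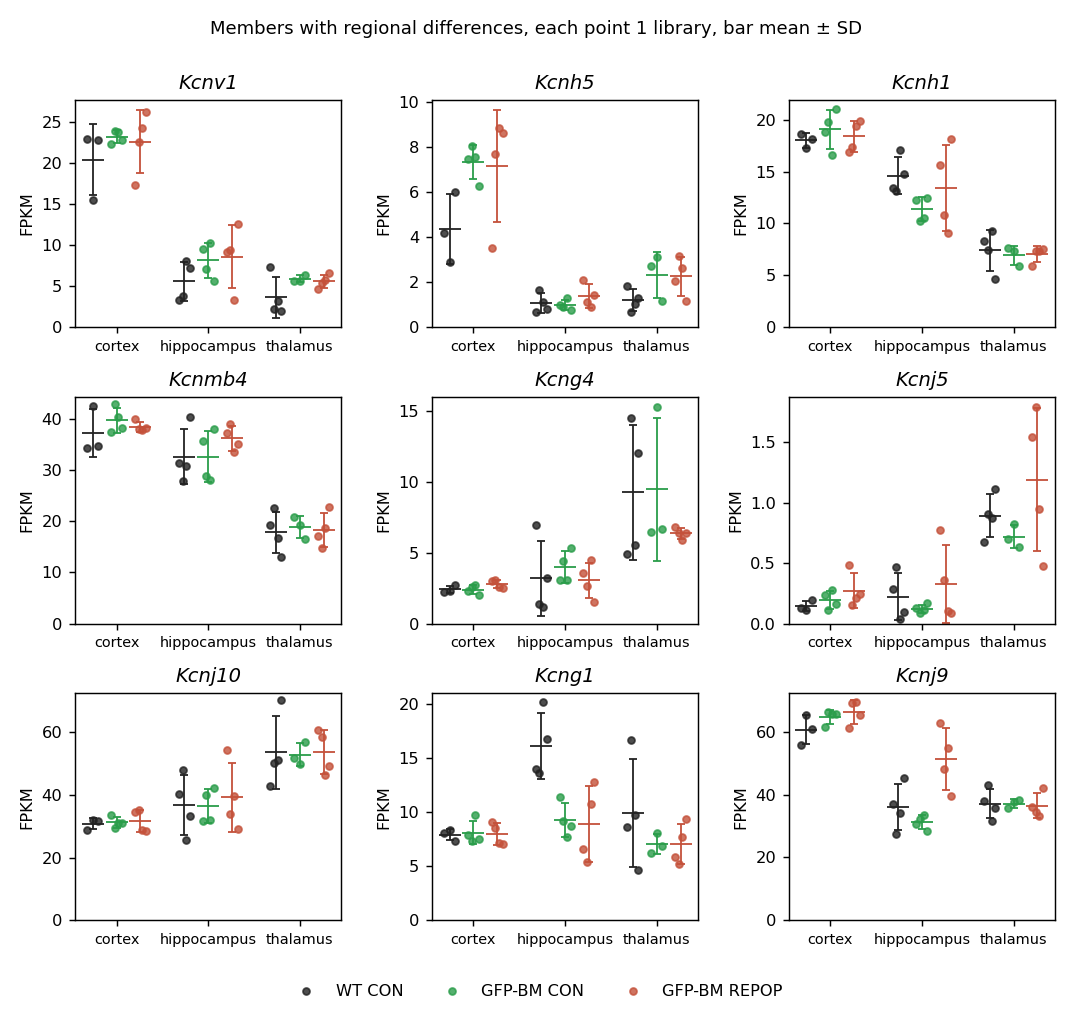
Levels of 9 potassium channel genes in every library. Each panel is 1 gene, the y axis is FPKM, points are libraries grouped by region and coloured by treatment group, and bars are group means ± SD. In all 3 treatment groups *Kcnv1*, *Kcnh5*, *Kcnh1* and *Kcnmb4* are lower in thalamus than in cortex, and *Kcng4*, *Kcnj5* and *Kcnj10* are higher.

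By family, the inward rectifiers moved in both directions in WT CON. Of 13, 4 were higher and 5 lower in thalamus than cortex, and 6 were higher and 1 lower in thalamus than hippocampus. Of 7 EAG, ERG and ELK genes, 5 were lower and 1 higher in thalamus than cortex. Of 8 calcium- and sodium-activated genes, 4 were lower in thalamus than cortex and none higher. Of 15 Kv1 to Kv4 pore subunits, 6 were lower in hippocampus than cortex and none higher, against 2 lower in thalamus. Of 9 silent subunits, 2 were higher and 4 lower in hippocampus than cortex. For the 4 Kv7 genes the falls numbered 3 in hippocampus and 2 in thalamus, and for the 10 tandem-pore genes 4 and 1. The 8 auxiliary subunits gave 1 call, a fall, in each contrast. Of all genes tested, 15.7% were called higher and 21.2% lower in hippocampus than cortex. The shares were 13.0% and 17.0% for thalamus against cortex, and 7.82% and 9.88% for thalamus against hippocampus. Families held 4 to 15 genes, and several of their counts lie near these shares. No test compared families.

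The regional order recurred in the transplanted mice, which are other animals. Of the 31 members called between thalamus and cortex in WT CON, 31 had the same sign in GFP-BM CON and 23 were called, and 31 and 21 in GFP-BM REPOP. For hippocampus against cortex, 27 of 28 had the same sign and 16 were called in GFP-BM CON, and 26 and 13 in GFP-BM REPOP. For thalamus against hippocampus, 19 of 20 had the same sign and 11 were called in GFP-BM CON, and 19 and 14 in GFP-BM REPOP. None was called in the opposite direction. The matching shares among all genes called in WT CON were not computed. These repeat counts therefore do not set the members apart from other genes. The calls of the treatment groups also rested on the same spread, shared by all libraries. The transplanted groups' own counts were 2 higher and 27 lower (hippocampus against cortex), 5 and 21 (thalamus against cortex) and 11 and 9 (thalamus against hippocampus) in GFP-BM CON. Of all genes, 19.8%, 12.9% and 14.3% were called there (7.72%, 5.08% and 6.74% higher, and 12.1%, 7.85% and 7.59% lower). In GFP-BM REPOP they were 0 and 15, 5 and 17, and 16 and 14, where 17.5%, 14.8% and 34.3% of all genes were called (4.65%, 6.11% and 17.4% higher, and 12.8%, 8.70% and 16.9% lower).

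Thalamus was called below cortex in all 3 treatment groups for 17 members (23.0%, against 5.02% of all genes). They included *Kcnf1*, *Kcnh1*, *Kcnh3*, *Kcnh4*, *Kcnh5*, *Kcnh7*, *Kcnip3*, *Kcnj4*, *Kcnj9*, *Kcnj11*, *Kcnk4*, *Kcnmb4*, *Kcnq5*, *Kcns1*, *Kcnt2* and *Kcnv1*, and all 17 were also called in each group after the GC correction. It was called above cortex in all 3 groups for *Kcng4*, *Kcnj5* and *Kcnj10* (4.05%, against 3.87% of all genes), which held after that correction too. In WT CON only thalamus brought *Kcnj5* to the FPKM minimum, so its place in this count partly follows from the rule. *Kcnj10* read 33.7, 29.4, 31.1 and 30.9 in cortex and 51.8, 49.8 and 57.0 in thalamus of GFP-BM CON, and 34.6, 35.1, 29.0 and 28.4 in cortex and 60.9, 58.5, 46.4 and 49.3 in thalamus of GFP-BM REPOP. *Kcnv1* read 22.4, 24.0, 23.8 and 22.8 in cortex and 5.65, 5.65 and 6.39 in thalamus of GFP-BM CON, and 17.4, 22.7, 24.3 and 26.3 in cortex and 4.60, 5.33, 5.78 and 6.59 in thalamus of GFP-BM REPOP. In both genes the regions did not overlap in either transplanted group.

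Hippocampus was called below cortex in all 3 groups for 11 members (14.9%, against 5.56% of all genes): *Kcna2*, *Kcna3*, *Kcng3*, *Kcnh5*, *Kcnh7*, *Kcnj9*, *Kcnk9*, *Kcnma1*, *Kcnq3*, *Kcnt2* and *Kcnv1*. The GC correction kept 8 of them, all but *Kcnk9*, *Kcnq3* and *Kcnt2*. No member was called above cortex in all 3 groups, against 1.17% of all genes. *Kcnh5* read 7.48, 8.03, 7.54 and 6.28 in cortex and 0.976, 0.878, 1.28 and 0.768 in hippocampus of GFP-BM CON, and 3.51, 7.67, 8.83 and 8.61 in cortex and 2.07, 1.09, 0.881 and 1.43 in hippocampus of GFP-BM REPOP. Against hippocampus, thalamus was lower in all 3 groups for *Kcnh1*, *Kcnip2*, *Kcnmb4* and *Kcns2* (5.41%, against 3.91% of all genes), all 4 also after the GC correction, and higher for *Kcna2*, *Kcnj10*, *Kcnj16*, *Kcnj5* and *Kcnk9* (6.76%, against 3.17%), of which the correction kept 2. These were *Kcna2* and *Kcnj5*, the latter favoured by the FPKM minimum.

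**Figure D3:**
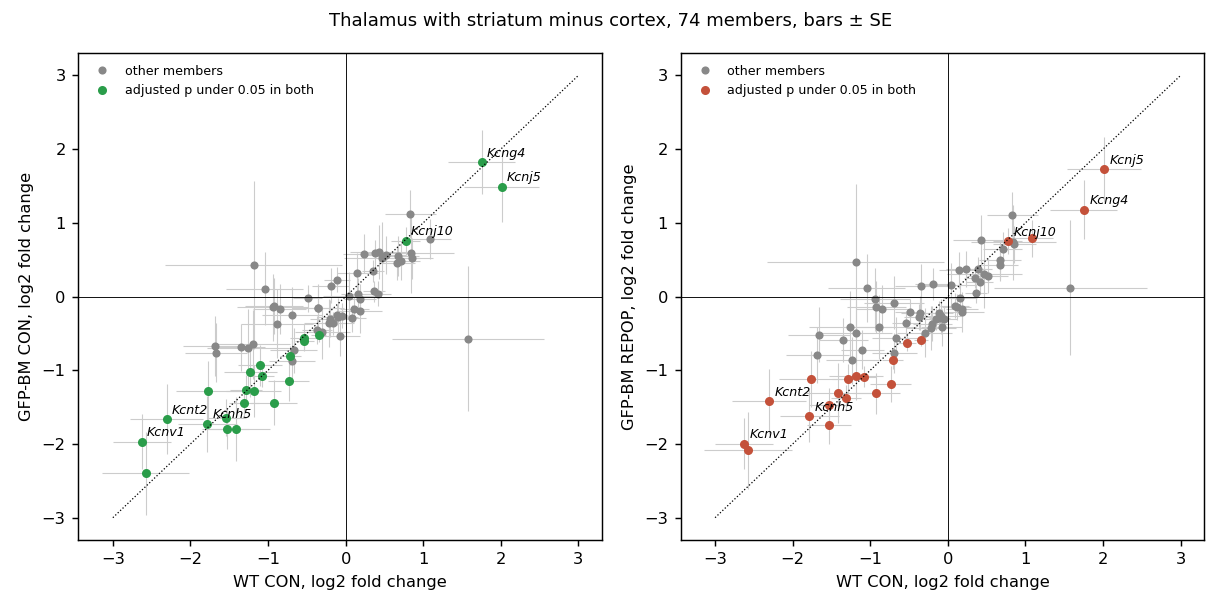
Thalamus against cortex in the potassium channel genes, by treatment group. The x axis is the log2 fold change in WT CON, the y axis that in GFP-BM CON (left) and GFP-BM REPOP (right), each point is a member and the bars are standard errors. All 31 members called in WT CON have the same sign in both transplanted groups. The matching share over all genes was not computed.

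Few treatment differences were called, in groups of 3 or 4 libraries, which does not show that effects were absent. At the same threshold, the paper reports many more genes for GFP-BM REPOP against WT CON in thalamus and hippocampus, and fewer in cortex. Its design matrix is not given. In 8 of the 9 treatment contrasts no member was called by limma, and few other genes were: 0.734%, 0.320% and 0.0476% of all genes in cortex (each transplanted group against WT CON, GFP-BM REPOP first, then the transplanted groups against each other), 0.0136%, 0.00% and 0.0272% in hippocampus and 0.00% in the other contrasts of thalamus. Thalamus of GFP-BM REPOP against WT CON gave 3 members, all higher, where 0.836% of all genes were called (0.755% higher). *Kcna3*, a Kv1 pore subunit also known from lymphocytes and microglia, read 1.95, 0.830, 0.740 and 0.864 FPKM in WT CON, 4.69, 7.12 and 3.21 in GFP-BM CON and 4.23, 8.41, 6.03 and 2.57 in GFP-BM REPOP. Every transplanted thalamus was above every WT CON thalamus, and the change from WT CON to GFP-BM REPOP was 2.15 ± 0.40 (SE, adjusted p = 0.048). *Kcnt2* read 0.835, 0.352, 0.358 and 0.441 in WT CON, 2.90, 3.40 and 1.33 in GFP-BM CON and 2.06, 2.59, 3.04 and 1.30 in GFP-BM REPOP, a log2 fold change of 1.98 ± 0.36 (SE, adjusted p = 0.047). *Kcnq3* read 8.87, 3.49, 3.93 and 4.15 in WT CON, 14.8, 12.3 and 10.1 in GFP-BM CON and 11.2, 14.4, 17.3 and 12.6 in GFP-BM REPOP, a log2 fold change of 1.51 ± 0.27 (SE, adjusted p = 0.047). WT CON replicate 1 was the highest of its group for all 3 genes, and for none did the WT CON and transplanted libraries overlap, as for 18.8% of all genes between WT CON and GFP-BM REPOP.

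GFP-BM CON had the same 3 members as its smallest p in thalamus, with changes against WT CON of 2.12 ± 0.39 (adjusted p = 0.058), 2.12 ± 0.43 (0.058) and 1.35 ± 0.29 (0.062) for *Kcnt2*, *Kcna3* and *Kcnq3*, none of them called by limma. Both contrasts used the same WT CON libraries. From GFP-BM CON to GFP-BM REPOP the thalamus differed by 0.03 ± 0.43, -0.13 ± 0.39 and 0.16 ± 0.29 (SE) for *Kcna3*, *Kcnt2* and *Kcnq3*. No member had an unadjusted p under 0.05 in that contrast (0.945% of all genes did), whereas 13 members did for GFP-BM REPOP against WT CON (25.0% of all genes) and 10 for GFP-BM CON against WT CON (20.7%). The smallest p belonged to *Kcns2*, *Kcnj5* and *Kcnk13*, with changes of 0.26 ± 0.18, 0.52 ± 0.37 and 0.23 ± 0.17.

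The calls in thalamus were close to the threshold. With the GC correction, under which 0.915% of all genes were called, *Kcna3* was the only member called, at 2.41 (adjusted p = 0.042), and *Kcnt2* and *Kcnq3* read 0.55 (0.25) and 0.65 (0.11). Leaving out WT CON thalamus replicate 1 raised the count to 7, with 12.2% of all genes called, and leaving out each of 8 other thalamus libraries took it to 0 (WT CON replicates 2, 3 and 4, GFP-BM CON replicates 1 and 2, and GFP-BM REPOP replicates 1, 2 and 3), whereas 1 was called without GFP-BM CON replicate 3 and 2 without GFP-BM REPOP replicate 4. The change of *Kcna3* stayed between 1.89 and 2.45 in these fits, that of *Kcnt2* between 1.82 and 2.22 and that of *Kcnq3* between 1.36 and 1.81.

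The members' changes in thalamus moved with their GC content. Across the 74 genes, GC content of the transcript and the log2 fold change of GFP-BM REPOP against WT CON had r = -0.62. The genes are not independent replicates and were measured in the same libraries. After the correction r was 0.02, a fall that the method itself brings about, since it removes trends with GC content over all genes. The median change was 0.79 for the 15 members under 45% GC, 0.02 for the 33 at 45% to 55% and -0.19 for the 26 above. *Kcnt2* has 36.6% GC and *Kcnq3* 44.4%, whereas *Kcna3* has 60.3%. The GC measure of the thalamus libraries was 2.08 ± 1.14 (SD, n = 4) in WT CON, 0.62 ± 0.19 (n = 3) in GFP-BM CON and 0.67 ± 0.20 (n = 4) in GFP-BM REPOP. GFP-BM REPOP was lower than WT CON by an exact permutation test (p = 0.0286, the smallest that 4 against 4 allow, adjusted p = 0.13 over 9 comparisons). Neuron markers summed to 1795 to 2146 FPKM in WT CON thalamus and 2179 to 2329 in GFP-BM REPOP, markers of engrafted or border myeloid cells to 17.4 to 39.9 and 114 to 199, and microglia markers to 167 to 253 and 152 to 168. Over 15 marker lists and 9 contrasts, 10 of 135 exact permutation tests gave p under 0.05 and none passed adjustment (smallest adjusted p = 0.37). With 0.0286 as the smallest possible p, a list could pass only if most of the 135 tests reached it. The lack of a call therefore does not show that the marker levels were alike. The part of the markers in the *Kcna3* change was not tested.

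**Figure D4:**
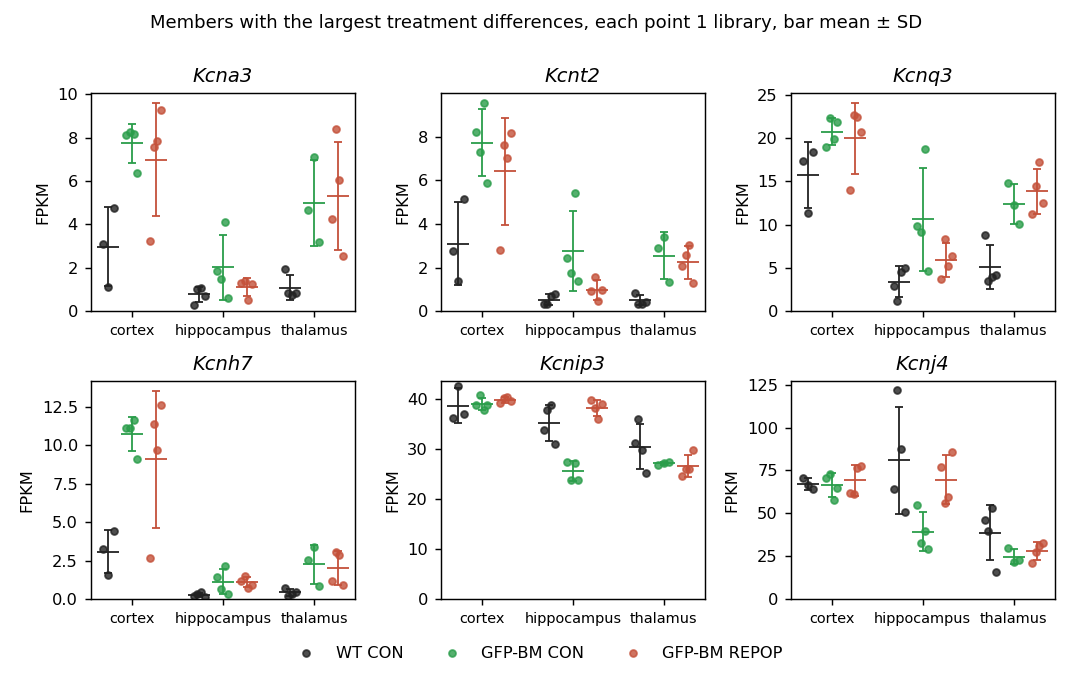
Levels of 6 potassium channel genes by treatment. Each panel is 1 gene, the y axis is FPKM, points are libraries grouped by region and coloured by treatment group, and bars are group means ± SD. In thalamus every transplanted library lies above every WT CON library for *Kcna3*, *Kcnt2* and *Kcnq3*, and in hippocampus every GFP-BM CON library lies below every WT CON and GFP-BM REPOP library for *Kcnip3*.

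**Figure D5:**
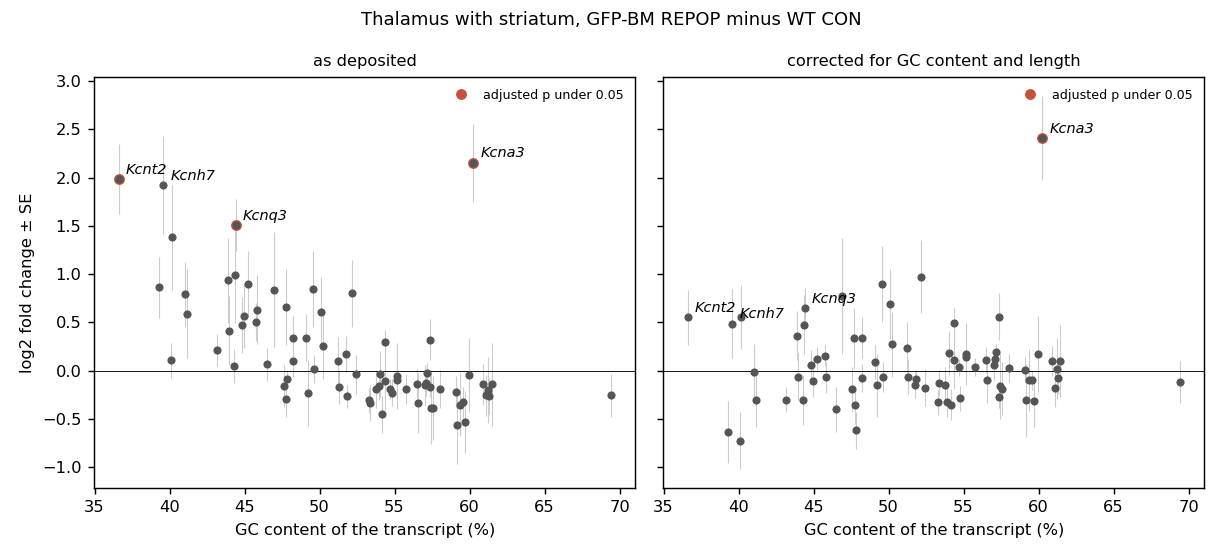
Treatment difference in thalamus against GC content. The x axis is the GC content of each member's longest transcript in percent, the y axis the log2 fold change of GFP-BM REPOP against WT CON, as deposited (left) and after the correction for GC content and length (right). Each point is 1 of 74 members. The r is -0.62 before and 0.02 after the correction, which removes trends with GC content by design.

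In cortex no treatment contrast called a member. Between the transplanted groups the smallest p belonged to *Kcnj2*, *Kcnf1* and *Kcns3*. With 1 library left out, their changes ran from 0.22 to 0.40, from -0.18 to -0.08 and from -0.28 to -0.15. Against WT CON, the smallest p for both transplanted groups belonged to *Kcnh7*, *Kcna3* and *Kcna1*, a Kv1 pore subunit. *Kcnh7* read 3.26, 1.59 and 4.39 in WT CON, 11.1, 11.1, 11.6 and 9.07 in GFP-BM CON and 2.68, 11.4, 9.65 and 12.6 in GFP-BM REPOP, with changes from WT CON of 1.87 ± 0.46 (adjusted p = 0.12) and 1.43 ± 0.46 (0.22) in limma. *Kcna3* read 3.08, 1.13 and 4.74 in WT CON, 8.14, 8.26, 8.18 and 6.39 in GFP-BM CON and 3.24, 7.56, 7.84 and 9.27 in GFP-BM REPOP. GFP-BM REPOP replicate 1 was within the WT CON range for both genes, and the other transplanted libraries were above it. That library also had the highest GC measure of its group, 0.99. Without it, *Kcnb2*, *Kcnh5* and *Kcnh7* were called for GFP-BM REPOP against WT CON, and *Kcnb2* and *Kcnh7* for GFP-BM CON against WT CON (*Kcnb2* and *Kcnh5* were named after their values were seen), where 1.65% and 1.56% of all genes were called. *Kcna1* differed by -0.17 ± 0.05 and -0.16 ± 0.05 from WT CON. *Kcnh7* has 39.6% GC and *Kcnb2* 39.3%, whereas *Kcnh5* has 49.6% and *Kcna3* 60.3%. The GC measure averaged 0.94 in WT CON cortex, 0.52 in GFP-BM CON and 0.64 in GFP-BM REPOP. With all libraries and the GC correction, no member was called in cortex either. The part of GC content in these values was not tested. At an unadjusted p under 0.05 were 9 members for GFP-BM REPOP against WT CON (14.3% of all genes), 15 for GFP-BM CON against WT CON (16.0%) and 0 between the transplanted groups (4.27%).

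In hippocampus no treatment contrast called a member, and most of the smallest p belonged to differences of GFP-BM CON from another group. *Kcnip3*, the Kv4 auxiliary subunit also called DREAM or calsenilin, read 33.7, 37.7, 38.7 and 30.9 in WT CON, 27.3, 23.9, 27.2 and 23.8 in GFP-BM CON and 39.7, 38.2, 35.9 and 38.9 in GFP-BM REPOP. GFP-BM CON was -0.46 ± 0.10 from WT CON (adjusted p = 0.071) and GFP-BM REPOP 0.58 ± 0.10 from GFP-BM CON (0.096), neither called by limma in hippocampus libraries alone, although the GFP-BM CON libraries overlapped neither group. *Kcnj9*, a G protein-gated inward rectifier, read 37.1, 27.5, 34.3 and 45.2 in WT CON, 30.6, 32.3, 33.4 and 28.3 in GFP-BM CON and 62.8, 48.2, 54.8 and 39.6 in GFP-BM REPOP, with a difference of 0.70 ± 0.16 between the transplanted groups (adjusted p = 0.16). *Kcnh3* read 38.5, 67.8, 46.4 and 36.8 in WT CON, 33.9, 26.3, 31.9 and 20.2 in GFP-BM CON and 62.1, 39.8, 47.3 and 52.3 in GFP-BM REPOP, a difference of 0.85 ± 0.22 (0.19). *Kcnj4* read 64.2, 122, 87.4 and 50.6 in WT CON, from 29.1 to 54.9 in the 4 GFP-BM CON libraries and 76.8, 56.3, 59.6 and 86.0 in GFP-BM REPOP, with GFP-BM CON -1.01 ± 0.27 from WT CON (0.075). In *Kcnj9*, *Kcnh3* and *Kcnj4* the GFP-BM REPOP libraries were above the GFP-BM CON libraries without overlap, as in 6.88% of all genes in either direction, whereas WT CON and GFP-BM CON overlapped for *Kcnj9* and *Kcnj4*.

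When all 9 groups entered 1 fit, whose spread is shared with cortex and thalamus, 20 members were called in hippocampus for GFP-BM CON against WT CON, 9 for GFP-BM REPOP against GFP-BM CON, all higher, and 1 for GFP-BM REPOP against WT CON. Of all genes, 19.4%, 4.52% and 2.79% were called there. *Kcnip3* then had an adjusted p of 0.0033 for GFP-BM CON against WT CON and 0.00021 for GFP-BM REPOP against GFP-BM CON. Cortex markers summed to 103 to 122 FPKM in WT CON hippocampus, 91.7 to 117 in GFP-BM CON and 132 to 296 in GFP-BM REPOP, the difference between the transplanted groups reaching p = 0.0286 (exact permutation test of the summed level, the smallest possible, not adjusted). The value planned for the test was the mean log2 level of the list, by which no list passed adjustment. For cortex markers it was 2.72 ± 0.25 (SD) in GFP-BM CON hippocampus and 3.31 ± 0.39 in GFP-BM REPOP. Hippocampus markers summed to 68.6 to 319, 223 to 365 and 65.7 to 319. Striatum markers summed to 512, 820, 732 and 82.2 in WT CON hippocampus replicates 1 to 4, to 139 to 174 in GFP-BM CON and to 123 to 1973 in GFP-BM REPOP. All 10 of them had a lower mean in GFP-BM CON than in WT CON, with a mean log2 difference of -1.47 (exact permutation p = 0.14, two-sided, adjusted p = 0.51). Without GFP-BM REPOP hippocampus replicate 1, the library with the most cortex markers, the difference between the transplanted groups was 0.56 for *Kcnip3* and 0.60 for *Kcnj9*. The GC measure averaged 2.57 ± 0.67 (SD) in WT CON, 1.37 ± 0.58 in GFP-BM CON and 1.94 ± 0.55 in GFP-BM REPOP hippocampus, and GC content and the change from WT CON to GFP-BM CON had r = -0.54 across the 74 members. The part of the marker and GC differences in these values was not tested.

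*Kcnt2* was also among the smallest p in hippocampus, reading 0.329, 0.332, 0.696 and 0.798 in WT CON, 2.46, 1.75, 5.43 and 1.40 in GFP-BM CON and 0.922, 1.55, 0.470 and 0.956 in GFP-BM REPOP. GFP-BM CON did not overlap with WT CON, at 2.05 ± 0.45 (adjusted p = 0.071 in limma, not called). *Kcnt2* has the lowest GC content of the members, 36.6%, and the GC measure differed between these groups as given above. No member was called in this contrast after the GC correction either. The part of GC content in this difference was not tested. For GFP-BM REPOP against WT CON the smallest p belonged to *Kcng1* (-0.92 ± 0.25), *Kcnh7* (1.70 ± 0.49) and *Kcnj9* (0.51 ± 0.16), with adjusted p of 0.33, 0.36 and 0.39 in limma. At an unadjusted p under 0.05 were 7 members in that contrast (9.67% of all genes), 21 for GFP-BM CON against WT CON (23.9%) and 14 for GFP-BM REPOP against GFP-BM CON (11.7%).

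Of the members known from non-neuronal cells, *Kcna3*, also known from lymphocytes and microglia, was called in thalamus as given above. *Kcnk13*, *Kcnk6*, *Kcnj10*, *Kcnj16* and *Kcnj13* gave no treatment call. *Kcnk13* read 4.76, 8.21, 5.72 and 5.21 in WT CON thalamus and 5.35, 5.17, 4.76 and 5.21 in GFP-BM REPOP thalamus, overlapping ranges with a difference of -0.19 ± 0.16 (adjusted p = 0.41 in limma). *Kcnk6*, a tandem-pore channel of myeloid cells, differed there by -0.17 ± 0.17, *Kcnj10* by 0.02 ± 0.15 and *Kcnj16*, its astrocyte partner, by 0.21 ± 0.17, with adjusted p of 0.49, 0.93 and 0.38. *Kcnj13*, the inward rectifier of the choroid plexus, varied widely within groups in hippocampus. It read 26.1, 1.08, 3.47 and 0.621 in WT CON hippocampus, 0.0918, 4.97, 22.1 and 24.1 in GFP-BM CON and 0.737, 2.42, 1.21 and 1.12 in GFP-BM REPOP. In the same order of libraries, the choroid plexus marker list summed to 6538, 34.9, 770 and 80.3 FPKM in WT CON, 50.5, 1135, 4940 and 6405 in GFP-BM CON and 92.1, 291, 176 and 262 in GFP-BM REPOP. The 3 libraries with *Kcnj13* above 20 had the 3 highest sums, whereas the lowest sum in WT CON was not in the library with the lowest *Kcnj13*. The part of choroid plexus in these values was not tested.

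Whether a treatment effect differed between regions was tested directly in 9 contrasts of contrasts. No member was called in any of them by limma, where 0.00% to 0.177% of all genes were called (0.177% and 0.0272% for GFP-BM REPOP against GFP-BM CON, between hippocampus and cortex and between thalamus and hippocampus, and 0.0340% for GFP-BM REPOP against WT CON in the same pairs of regions). At an unadjusted p under 0.05 were 0 to 14 members per contrast, with 14 (8.52% of all genes) for GFP-BM REPOP against GFP-BM CON between hippocampus and cortex. The smallest adjusted p was 0.055, for *Kcnip3* between hippocampus and cortex in the change from GFP-BM CON to GFP-BM REPOP, a difference of 0.55 ± 0.12 (SE). The same effect differed by -0.61 ± 0.13 between thalamus and hippocampus (adjusted p = 0.074). *Kcnip3* was called in the first of these without the animal as a replicate block (adjusted p = 0.041). The rise of *Kcna3* from WT CON to GFP-BM REPOP differed by 1.63 ± 0.69 between thalamus and hippocampus and by 0.84 ± 0.72 between thalamus and cortex, with adjusted p of 0.46 and 0.62.

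Genes that work with potassium channels were followed in the same fits. Of 20 partner genes, 18 were tested (not *Lrrc52* and *Kcnrg*). In WT CON, 2 were higher and 4 lower in hippocampus than cortex, 3 and 6 in thalamus than cortex, and 3 and 4 in thalamus than hippocampus, beside the 36.9%, 30.0% and 17.7% of all genes called in these contrasts. *Dpp10* and *Dpp6*, accessory subunits of Kv4 channels, moved in opposite directions: *Dpp10* changed by -1.88 ± 0.43 in hippocampus and -1.11 ± 0.43 in thalamus against cortex, and *Dpp6* by 0.69 ± 0.15 and 0.57 ± 0.15, all called. Of 31 other cation channel genes, all tested, 5 were higher and 10 lower in hippocampus than cortex, 3 and 10 in thalamus than cortex, and 4 and 6 in thalamus than hippocampus. *Hcn4*, a channel of the hyperpolarization-activated current, was higher in hippocampus (1.15 ± 0.39) and thalamus (2.30 ± 0.39) than in cortex. *Scn1a*, a sodium channel pore gene, changed by -3.29 ± 0.45 in hippocampus against cortex. By treatment, *Cacng2* and *Cacnb4*, named as calcium channel subunits, were called, both higher in thalamus of GFP-BM REPOP than of WT CON, where 0.836% of all genes were called. No other gene of either list was called in any treatment contrast by limma. Among differences of treatment effects between regions, only *Cacng3* was called. This was for GFP-BM REPOP against GFP-BM CON between hippocampus and cortex, where 0.177% of all genes were called. The genes named from these lists were chosen after their values were seen.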

How the data were processed

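Bulk RNA-seq of cortex, hippocampus and thalamus was analysed in 34 libraries from 12 mice, with the number in the library name taken as the animal. The authors aligned the reads with STAR to mm10, counted them per gene with featureCounts and computed FPKM values with edgeR and limma, and deposited those FPKM values per gene and library. From these values, whole reads were recovered for 100% of values (within 0.02 of a whole number), which gave the depth of each library.

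Genes with FPKM of at least 1 in 3 or more libraries and a protein coding, lncRNA or unknown biotype were tested (14710). log2(FPKM + 0.1) was fitted with limma 3.58.1 in R 4.3.3, with a trend on the mean, and p was adjusted by Benjamini-Hochberg over all genes tested, with calls under 0.05. Because a pseudocount of 0.1 was added, fold changes of genes with low values are understated. Contrasts between regions, and differences of treatment effects between regions, came from 1 fit of the 9 groups, in which animal was a random block (consensus correlation -0.038). Contrasts between treatments came from 1 fit per region. Deviations of libraries from 1 animal had a median correlation of 0.12 over 32 pairs, 19 of them over 0.1. Title numbers shared across treatments had a median of -0.08 over 32 pairs, 5 of them over 0.1, and did not pair the mice. Marker lists were compared by exact permutation tests, two-sided. The correction for GC content and length used a spline with 5 degrees of freedom per library on the longest GENCODE transcript of each gene.

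The named members were, per WT CON regional contrast, the 5 largest changes in each direction among called members without overlap, and, per treatment contrast, all called members or, where none was called, the 3 smallest p, besides members with the highest levels, those nearest to the FPKM minimum and those of known cell types. The members and lists were chosen with earlier results of these data known. Values of a few single genes are not reported here, although counts over the members include them. The fits were tested on simulated data. Tools were Python 3.11.15, numpy 2.4.6, pandas 2.3.3, scipy 1.17.1 and matplotlib 3.10.9.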

Additional observations from a re-analysis of the deposited data

Results flagged for a closer look

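In groups of 4 libraries, the highest or lowest value of a named member was set against the other 3 by Dixon's ratio at its 95% critical value. Of 182 groups over 26 members, 13 met this, where chance gives about 1 in 20. All values are FPKM.

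*Kcna3* gave 3 of them. It read 6.39 in GFP-BM CON cortex replicate 4, where the others ran from 8.14 to 8.26, 0.520 in GFP-BM REPOP hippocampus replicate 3 (others 1.27 to 1.40) and 1.95 in WT CON thalamus replicate 1 (others 0.740 to 0.864). The same WT CON thalamus library stood apart for *Kcnq3*, at 8.87 (others 3.49 to 4.15), and both genes are among the treatment calls in thalamus.

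*Kcnk15*, a tandem-pore gene at the FPKM minimum, also gave 3. It read 6.40 in WT CON hippocampus replicate 2 (others 0.0478 to 0.509), 2.94 in GFP-BM REPOP hippocampus replicate 1 (others 0 to 0.107) and 0.0406 in GFP-BM CON hippocampus replicate 2 (the others at 0). The first and the second are the libraries with the lowest sums of hippocampus markers, 68.6 and 65.7.

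*Kcnj13* read 26.1 in WT CON hippocampus replicate 1 (others 0.621 to 3.47), the library in which the choroid plexus markers summed to 6538. *Kcnh2* read 21.2 in GFP-BM CON hippocampus replicate 4 (others at most 12.4), where those markers summed to 6405. Replicate 3 of that group, where they summed to 4940, was among those others. The part of choroid plexus in these values was not tested.

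*Kcnj14* read 3.37 in WT CON thalamus replicate 2 (others 1.12 to 1.45), and *Kcnh1* 5.89 in GFP-BM REPOP thalamus replicate 1 (others 7.33 to 7.49). In cortex, *Kcna2* read 36.2 in GFP-BM CON replicate 2 (others 32.0 to 32.3) and *Kcnmb4* 40.0 in GFP-BM REPOP replicate 1 (others 37.8 to 38.2).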

How the results depend on the processing

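Over the 50 named member results, 1270 alternative values were computed. None reversed, 1139 kept their side of the threshold, 96 were no longer called and 35 became called. These results were chosen for large changes or small p in the same data, which makes a reversal unlikely. Hippocampus against cortex in *Kcnb2*, whose direction the GC correction turned, was not among them. Of the counts, 752 alternative values stayed within 1.5 times the main count and 88 did not. The counts below are of members called unless another list is named, in the order hippocampus against cortex, thalamus against cortex and thalamus against hippocampus where 3 are given. The cause of these shifts was not tested, beyond the smaller number of libraries in some fits. The share of all genes called moved with the setting too, so a higher count is not by itself a gain in the members. For thalamus of GFP-BM REPOP against WT CON it was 0.836% in the main fit and 12.2% without WT CON thalamus replicate 1.

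For WT CON regions, the WT CON libraries alone gave 10, 11 and 4, and 11, 14 and 9 with the GC and length correction as well. The fixed replicate block by animal in those libraries gave 1, 2 and 1. For partner genes these fits gave 3, 3 and 2 (WT CON alone), 3, 2 and 0 (with the correction) and 0, 1 and 0 (replicate block), and for other cation channels 8, 6 and 5, then 9, 7 and 6, then 2, 2 and 0. Leaving out 1 library gave 4 to 9 partner genes for thalamus against cortex (at most 5 without WT CON cortex replicate 1, 2 or 3 or thalamus replicate 2) and 4 to 9 for thalamus against hippocampus (lowest without WT CON hippocampus or thalamus replicate 4). In GFP-BM CON, thalamus against hippocampus gave 37 in that group alone and 31 with the correction and WT CON animal 33 left out, and 10 to 19 with 1 library left out (at most 11 without GFP-BM CON hippocampus replicate 1, or thalamus replicate 2 or 3), and thalamus against cortex gave 17 to 23 (lowest without either of the last 2 libraries). In GFP-BM REPOP, thalamus against hippocampus gave 19 to 29 (lowest without GFP-BM REPOP thalamus replicate 1).

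For thalamus of GFP-BM REPOP against WT CON (3 called), a stricter filter, median-ratio scaling, only the 2 groups compared and the replicate block by title number each gave 0. The correction gave 1, the correction without animal 33 gave 8, leaving out animal 33 gave 7 and all 9 groups in 1 fit gave 6. Leaving out 1 library gave 0 to 7. The test of recovered reads with voom gave 2. For thalamus of GFP-BM CON against WT CON (0 called), a pseudocount of 1, quantile normalization, the correction without animal 33, and 9 groups with the correction each gave 3, all 9 groups 4 and leaving out animal 33 gave 5, with 0 to 5 when 1 library was left out (highest without WT CON thalamus replicate 1). In hippocampus, all 9 groups in 1 fit gave 20 for GFP-BM CON against WT CON, 9 for GFP-BM REPOP against GFP-BM CON and 1 for GFP-BM REPOP against WT CON, and 19, 12 and 4 with the correction. Leaving out 1 library gave 0 to 6 for GFP-BM CON against WT CON (highest without WT CON hippocampus replicate 3 or GFP-BM CON hippocampus replicate 4). In cortex, GFP-BM CON against WT CON gave 1 with only the 2 groups compared and 0 to 2 with 1 library left out, and GFP-BM REPOP against WT CON 0 to 3, both highest without GFP-BM REPOP cortex replicate 1.

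For differences of treatment effects between regions (0 called), GFP-BM REPOP against GFP-BM CON between hippocampus and cortex gave 1 without the replicate block, with the correction, and with the correction and animal 33 left out, and 0 to 1 with 1 library left out, as did thalamus against hippocampus (0 to 1). The calls came without GFP-BM CON hippocampus replicate 1 (the former only), without GFP-BM REPOP hippocampus replicate 3 or 4 (both) and without GFP-BM REPOP thalamus replicate 4 (the latter only). GFP-BM REPOP against WT CON between thalamus and hippocampus gave 1 without animal 33 and 3 with the correction as well. The fits of 1 treatment group alone, of all 9 groups with the correction, of WT CON alone with the correction, of animal 33 left out with the correction and of genes with a GC content only were chosen after seeing the data. Groups held 3 or 4 libraries, and the median member value rested on 629 reads.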

Other observations

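*Kcne2*, an auxiliary subunit that the rule left out of the members, is expressed in the choroid plexus. It read 0.0861 to 22.6 FPKM in WT CON hippocampus, 0.171 to 26.2 in GFP-BM CON and 0.0326 to 1.03 in GFP-BM REPOP, and at most 2.42 in every cortex and thalamus library.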
